A study of Mus musculus with 8 samples.

Results

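The transcripts of 10 cardiac lineage transcription factors, *Gata4*, *Gata6*, *Mef2a*, *Mef2c*, *Mef2d*, *Tbx5*, *Tbx20*, *Hand2*, *Nkx2-5*, and *Irx4*, were followed across 8 RNA sequencing libraries of the mouse heart. They were chosen by symbol, as known regulators of heart muscle, from a table of 16994 genes. Tested were 12999 genes with a mean of 1 CPM or more over the libraries (CPM, counts scaled to a common library size), and all 10 factors passed this filter. The tissue came from male WT mice and male TKO mice, which lack TIGAR (a regulator of glycolysis) in the whole body. For the infarct, border, and remote zones, the left anterior descending artery was ligated at 16 weeks of age, and left ventricle (LV) tissue stands as the normal reference. When the zones were collected is not given in the sources used here, nor whether the LV mice had a sham operation. Each genotype and region is 1 library, so a ratio between 2 libraries has no replicate check. RNA of 3 mice was pooled for each infarct zone library, and the number of mice is not given for the other regions.

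These factors bind short DNA motifs and act together on the genes of the contractile apparatus. GATA4 and GATA6 are zinc finger proteins, NKX2-5 and IRX4 are homeodomain proteins, TBX5 and TBX20 are T-box proteins, HAND2 is a basic helix-loop-helix protein, and the MEF2 proteins are MADS-box factors. In the adult heart some are made mostly by cardiomyocytes, such as NKX2-5, whereas others, such as GATA4, GATA6, TBX20, and HAND2, are also known from non-muscle cells of the heart.

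Total counts per library lay between 27429240 and 33799249. *Tigar* had 1066 to 2215 counts in the WT libraries and 51 to 87 in the TKO libraries, so the deleted gene followed the labels. Levels below are in scaled CPM, computed after the library sizes were scaled by edgeR's TMM method, which placed the median gene of the infarct zone at a log2 difference of 0.02 from the LV. The TMM factors of the infarct libraries were 1.54 in WT and 1.26 in TKO, against 0.866 to 0.956 in the other 6 libraries, and with total counts alone the same median was 0.705. A list of 24 contractile genes, taken as cardiomyocyte markers, held 7.22% to 8.65% of all counts in the 6 libraries outside the infarct, 3.74% in the WT infarct library, and 5.89% in the TKO infarct library. The atrial gene *Myl7* had 5227 counts in the WT remote library and 2031 in the TKO remote library, against 44 to 682 elsewhere. The 10 factors together made up 0.0554% to 0.0799% of the counts of a library.

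**Figure D1:**
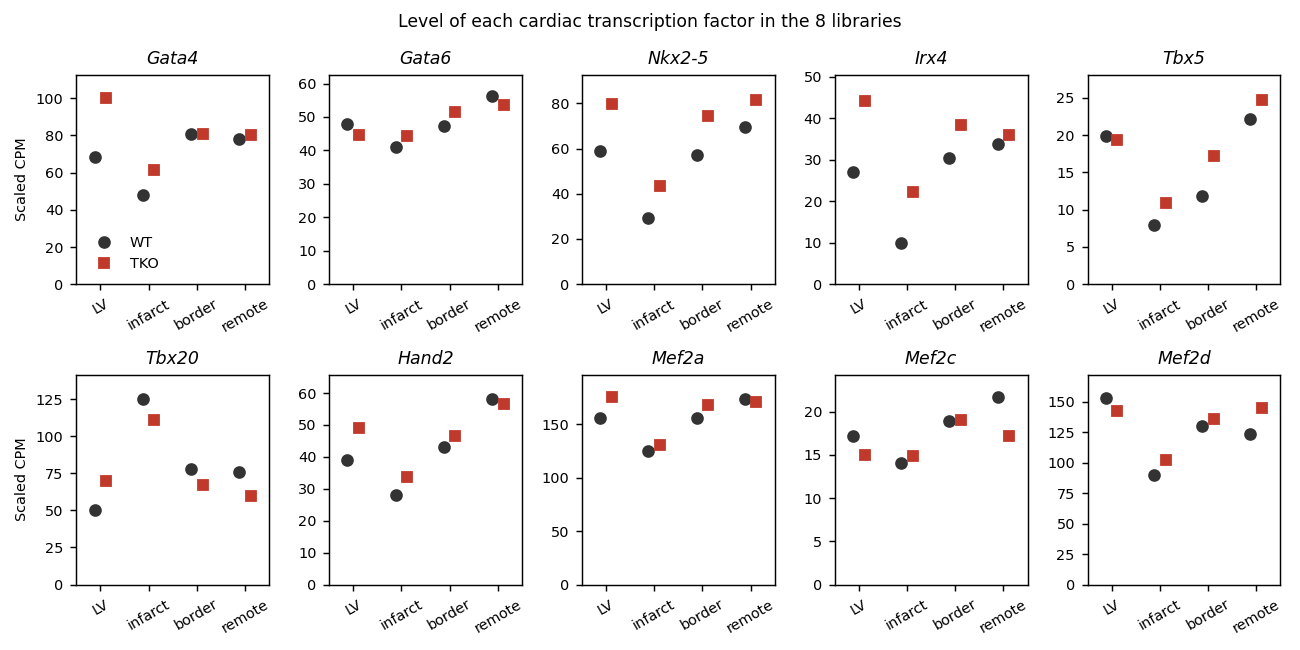
Level of each factor (scaled CPM, y axis from 0) in the LV and the infarct, border, and remote zones (x axis), with circles for WT and squares for TKO and 1 library per point. In both genotypes *Tbx20* was highest in the infarct zone, where *Nkx2-5*, *Irx4*, and *Tbx5* were lowest.

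No RefSeq promoter window, the 250 bases before an annotated start, was examined for *Gata4*, *Gata6*, or *Tbx5*, so their motif matches were not tested. Windows were examined for the other 7 of the 10 factors. Of these windows, 3 are shown because these genes stood apart in the libraries or held motif matches: *Tbx20*, the factor that was higher in the infarct zone, *Irx4*, the factor with the widest range of levels, and *Hand2*, with the most matches. Both strands were searched for binding words of the factors themselves. The words of GATA factors were AGATAA and AGATAG and, with T as the first base, TGATAA and TGATAG. The others were TNAAGTG for NKX2-5, TATTTTTA for MEF2, AGGTGTNA for T-box factors, and CATCTG for HAND factors, where N is any base. Capitals mark the matches, and the sequences are on the strand of the gene in GRCm38.p6. *Hand2* is on the plus strand at chr8:57320733-57320982, *Irx4* on the plus strand at chr13:73260247-73260496, and *Tbx20* on the minus strand at chr9:24774304-24774553.
Hand2: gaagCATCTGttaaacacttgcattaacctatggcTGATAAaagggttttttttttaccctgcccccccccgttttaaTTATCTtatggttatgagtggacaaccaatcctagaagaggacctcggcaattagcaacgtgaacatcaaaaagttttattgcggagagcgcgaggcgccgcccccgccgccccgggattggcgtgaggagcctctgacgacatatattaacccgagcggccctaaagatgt
Irx4: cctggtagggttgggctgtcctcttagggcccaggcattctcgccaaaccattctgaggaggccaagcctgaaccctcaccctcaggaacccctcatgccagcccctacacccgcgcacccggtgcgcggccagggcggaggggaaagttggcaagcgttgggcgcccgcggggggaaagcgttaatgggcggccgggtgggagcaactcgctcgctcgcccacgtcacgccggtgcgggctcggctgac
Tbx20: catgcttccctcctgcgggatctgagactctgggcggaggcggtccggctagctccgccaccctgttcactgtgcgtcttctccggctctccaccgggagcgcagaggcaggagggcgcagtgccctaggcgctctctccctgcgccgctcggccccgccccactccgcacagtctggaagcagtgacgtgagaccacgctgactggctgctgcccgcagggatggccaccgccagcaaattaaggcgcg
The *Hand2* window held the GATA word TGATAA 215 to 210 bases before the start. At 172 to 167 bases it held TTATCT, which is a GATA word on the other strand, and at 246 to 241 bases the HAND word CATCTG. No word overlapped another. The windows of *Irx4* and *Tbx20* held none of these words, and the only other match in the 9 windows of the 7 factors was a HAND word before 1 of the 3 start sites of *Mef2c*. Among all 32851 windows of this length, 26.5% held a GATA word, 14.4% a HAND word, 10.1% the NKX2-5 word, 2.68% the T-box word, and 2.45% the MEF2 word. The share of G and C was 68.8% in the windows of both *Irx4* and *Tbx20* and 49.2% in that of *Hand2*, against a median of 52.4% over all windows.

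The first question was how the factors compare in level with one another, which needs counts per kilobase of transcript. Over the union of annotated exons, the median level of *Nkx2-5* was the highest, at 37.4 scaled CPM per kb (17.0 to 47.5 over the 8 libraries). *Mef2d* followed at 22.2 (15.0 to 25.6), *Gata4* at 20.3 (12.3 to 25.6), and *Hand2* at 19.1 (12.0 to 24.8). Lower in the order were *Irx4* at 12.3 (3.80 to 16.9), *Mef2a* at 11.02 (8.50 to 11.97), *Gata6* at 7.32 (6.30 to 8.64), *Tbx20* at 6.08 (4.21 to 10.4), *Tbx5* at 3.92 (1.70 to 5.29), and *Mef2c* at 1.09 (0.898 to 1.38). Over the 8 libraries the ranges of all neighbours in this order overlapped except those of *Tbx5* and *Mef2c*. Within every single library, *Nkx2-5* was still above *Mef2d*, *Hand2* above *Irx4*, and *Mef2a* above *Gata6*. The order of the other overlapping neighbours differed between libraries. The order depended on the length used: with the longest annotated transcript, *Mef2a* moved to second place at 29.2 and *Mef2c* stood at 2.74, where its range overlapped that of *Tbx5*.

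The next comparison set the infarct zone against the LV, to see the levels of the factors in the infarcted tissue of both genotypes. With both genotypes in 1 fit and Benjamini-Hochberg adjustment over all genes, the quasi-likelihood test of edgeR called 8 of the 10 factors, 7 lower and 1 higher in the infarct zone. Over all tested genes 56.8% were called, 28.2% higher and 28.6% lower. The median log2 difference of the factors was -0.56, against 0.02 over all tested genes and -1.39 over the contractile genes. Here the 2 genotypes stand in as replicates, so the test bears on these libraries and not on mice. In such bulk tissue, fewer cells of a type and less RNA per cell cannot be told apart. With total counts in place of TMM, 5 factors were called, 3 higher and 2 lower, where 8953 of the 12999 tested genes were called. Of the 10 factors, 6 changed direction, as given beside each below.

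*Tbx20* (ENSMUSG00000031965), a T-box factor needed for heart chamber growth and for adult cardiomyocyte function, lies on chromosome 9 of GRCm38 from 24718138 to 24774303, the build of all positions given here. Its WT levels were 50.5 scaled CPM (LV), 124.9 (infarct), 77.9 (border), and 76.0 (remote). In TKO they were 69.9, 110.7, 66.9, and 60.02 in this order. The infarct library was the highest in both genotypes, and the 2 infarct libraries lay above the other 6. *Tbx20* rose by a log2 difference of 0.96 ± 0.20 (SE, adjusted p = 0.00739, edgeR), and with total counts by 1.64 (adjusted p = 0.000415). It stayed higher under every scaling tried and with the TKO LV or the WT remote library left out. Taken within 1 genotype, the infarct over LV ratio was 2.47 in WT (95% interval from counting error, 2.33 to 2.63) and 1.58 in TKO (1.498 to 1.68).

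*Irx4* (ENSMUSG00000021604), an Iroquois factor restricted to the ventricles, lies on chromosome 13 from 73260479 to 73269608. In WT its levels were 27.1 (LV), 9.90 (infarct), 30.4 (border), and 33.7 (remote). The TKO levels were 44.2, 22.3, 38.4, and 36.0. Its lowest library was the WT infarct, at 419 counts, and its highest the TKO LV, at 1144 counts, a 4.46-fold range that was the widest of the 10. It fell by 1.19 ± 0.24 on the log2 scale in the infarct zone (edgeR adjusted p = 0.00708), and with total counts the difference was -0.52 (adjusted p = 0.0445). Without the TKO LV library the difference was -1.084 with an adjusted p of 0.0332.

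*Nkx2-5* (ENSMUSG00000015579), the homeodomain factor that marks the cardiac lineage from its earliest stage, lies on chromosome 17 from 26838664 to 26845009. The WT levels were 59.1, 29.3, 57.3, and 69.4 in the LV and the infarct, border, and remote zones. The TKO levels were 79.9, 43.4, 74.5, and 81.7. Both infarct libraries lay below the other 6, and in each region the TKO library was above the WT library. *Nkx2-5* fell by 0.94 ± 0.11 on the log2 scale in the infarct zone (edgeR adjusted p = 0.00133). With total counts alone the difference was -0.26 (adjusted p = 0.0747), so its direction was kept and its call was not.

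*Tbx5* (ENSMUSG00000018263), the T-box factor of atrial and left ventricular muscle, lies on chromosome 5 from 119832668 to 119885219. It had 19.9, 7.94, 11.9, and 22.1 scaled CPM in the WT libraries, in the order LV, infarct, border, remote. In TKO it had 19.4, 10.9, 17.3, and 24.7. Its counts per library were 336 to 745, with the infarct library the lowest and the remote library the highest in each genotype. In the infarct zone it fell by 1.09 ± 0.16 on the log2 scale (edgeR adjusted p = 0.00216), and it remained lower with total counts (-0.40, adjusted p = 0.0453). Of the 31-base words of its transcripts, 1.09% were shared with other genes, and among the other factors this share reached 2.92% in *Mef2a*.

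*Gata4* (ENSMUSG00000021944), a zinc finger factor that cooperates with NKX2-5 and TBX5, lies on chromosome 14 from 63198922 to 63271692. Its WT levels were 68.3, 48.0, 80.6, and 78.2 from LV to remote zone, and the TKO levels were 99.9, 61.3, 80.6, and 80.3. The infarct library was the lowest in each genotype, and the TKO LV library was the highest of the 8. It fell by 0.61 ± 0.16 on the log2 scale (edgeR adjusted p = 0.0162), but with total counts the difference was 0.06, and without the TKO LV library it was -0.40 with an adjusted p of 0.0656. *Gata6* (ENSMUSG00000005836), its close relative, lies on chromosome 18 from 11052064 to 11085635 and had the narrowest range of the 10, 1.37-fold. Its levels ran from 41.0 in the WT infarct library to 56.2 in the WT remote library, with 47.9 in the WT LV and 44.6 in the TKO LV. The infarct zone difference of *Gata6* was -0.12 ± 0.10 (adjusted p = 0.357), and total counts gave 0.57 (edgeR adjusted p = 0.00309), a call as higher.

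*Hand2* (ENSMUSG00000038193), a basic helix-loop-helix factor of ventricular growth, lies on chromosome 8 from 57320983 to 57324633. It had 38.9, 28.1, 43.0, and 58.2 scaled CPM in WT and 49.0, 33.7, 46.6, and 56.6 in TKO, from LV to remote zone. Both genotypes had their lowest value in the infarct zone and their highest in the remote zone. It fell by 0.51 ± 0.12 on the log2 scale in the infarct zone (edgeR adjusted p = 0.0113), whereas total counts gave 0.17 (adjusted p = 0.275).

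The MEF2 factors act downstream of calcium signals in muscle, and 2 of the 3 were called. *Mef2a* (ENSMUSG00000030557), on chromosome 7 from 67231163 to 67372858, ran from 124.8 in the WT infarct library to 175.8 in the TKO LV library. It fell by 0.38 ± 0.11 on the log2 scale (edgeR adjusted p = 0.0288), a call lost without the TKO LV library (adjusted p = 0.0847) or the WT remote library (0.0602). *Mef2d* (ENSMUSG00000001419), on chromosome 3 from 88142372 to 88172086, had 153.3, 89.9, 129.9, and 123.8 in WT and 142.1, 102.3, 136.2, and 144.7 in TKO, and fell by 0.62 ± 0.13 (edgeR adjusted p = 0.00648). *Mef2c* (ENSMUSG00000005583), on chromosome 13 from 83504034 to 83667080, ran from 14.1 in the WT infarct library to 21.7 in the WT remote library, with a difference of -0.15 ± 0.13 (adjusted p = 0.348). Under total counts all 3 were higher in the infarct zone than in the LV, by 0.31 for *Mef2a*, 0.06 for *Mef2d*, and 0.53 for *Mef2c*, with an adjusted p of 0.00769 for the last. *Mef2a* overlaps *Lysmd4* on the opposite strand, and whether the counting used strand is not given in the sources used here.

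**Figure D2:**
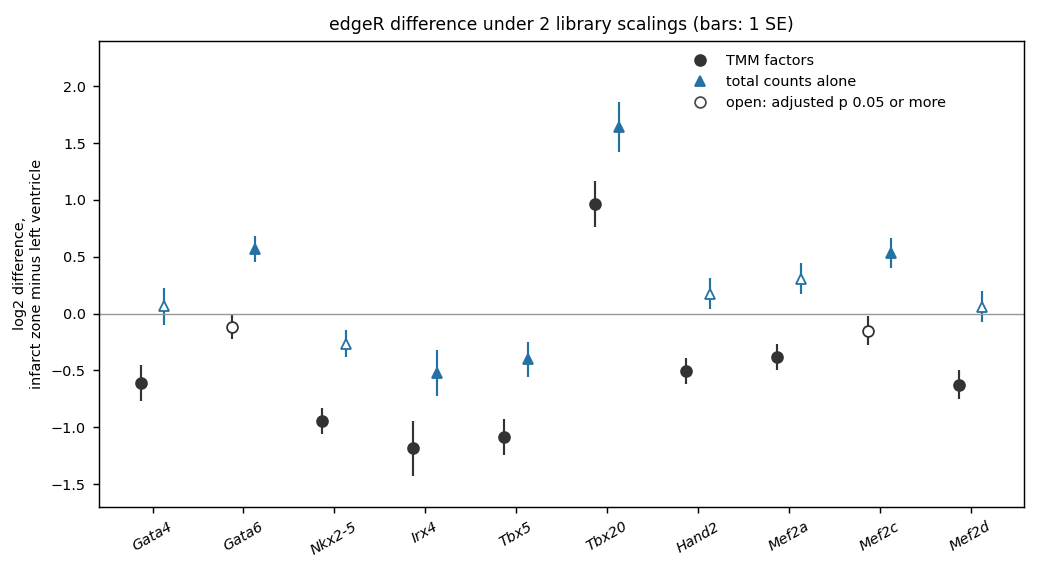
Log2 difference of each factor, infarct zone minus LV (y axis), from edgeR under TMM scaling (circles) and total counts alone (triangles), with bars of 1 SE. *Tbx20* lay above 0 and *Nkx2-5*, *Irx4*, and *Tbx5* lay below 0 under both, whereas the other 6 lay below 0 with TMM and above 0 with total counts.

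A value that does not depend on library scaling is the ratio of a factor over that of the contractile genes in the same comparison. In WT, the median contractile gene of the infarct library stood at 0.275 of its LV level, and all 10 factors lay above that ratio. Their median was 0.713, which is 2.59 times the contractile median. With TMM, 3 factors were at least 2-fold lower in the WT infarct library. They were *Irx4* at 0.366 (0.324 to 0.413), *Tbx5* at 0.399 (0.347 to 0.458), and *Nkx2-5* at 0.495 (0.4596 to 0.534). *Tbx20* was at least 2-fold higher. That is 4 of 10 past 2-fold, where 33.9% of all tested genes were. In TKO, the contractile median was 0.491, again below all 10 factors, whose median was 0.704, or 1.43 times the contractile median. None of the factors was past 2-fold in TKO with TMM, where 24.2% of all genes were, and the lowest was *Irx4* at 0.505 (0.461 to 0.553). With total counts the medians of the factors were 1.27 in WT and 1.02 in TKO. Relative to the contractile median, *Irx4* was the closest to the muscle genes in both genotypes, at 1.33 times in WT and 1.03 times in TKO, and *Tbx20* the farthest, at 8.998 and 3.22 times.

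**Figure D3:**
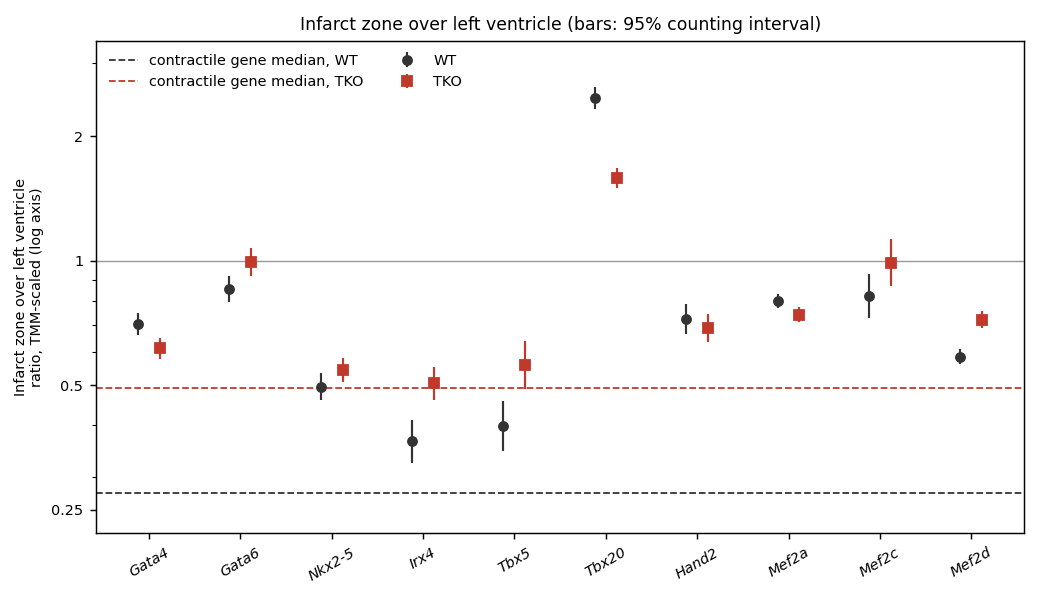
Infarct zone over LV ratio of each factor (y axis, log scale), with circles for WT, squares for TKO, and bars for the 95% interval from counting error. Dashed lines mark the median of 24 contractile genes, 0.275 in WT and 0.491 in TKO, and every factor lay above the line of its own genotype.

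Marker lists of other cells did not all move in 1 direction in the infarct libraries. Relative to the WT LV, the summed level of the 10 fibroblast markers was 9.28 in the WT infarct library and 7.67 in the TKO infarct library, and 1.12 to 3.37 in the TKO LV and the border and remote libraries. The 8 macrophage and leukocyte markers stood at 4.52 and 3.36 in the infarct libraries and 0.885 to 1.67 in the other 5. All 10 and all 8 of them were called higher in the infarct zone, under TMM and under total counts. The 24 contractile genes stood at 0.252 in the WT and 0.487 in the TKO infarct library and 0.786 to 1.04 elsewhere. With TMM, the sum of the 10 transcription factors was 0.811 and 0.899 in the infarct libraries and 1.02 to 1.16 in the other 5. As a share of total counts the order was reversed. The factors held 0.0799% in the WT and 0.0722% in the TKO infarct library, against 0.0554% to 0.0646% in the rest. These sums lean on *Tbx20*, which gave 5282 of their 21912 counts in the WT infarct library and 1383 of 17492 in the WT LV. In TKO it gave 3959 of 20513 in the infarct library and 1811 of 19156 in the LV. The part of cell makeup in the differences of the factors was not tested.

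**Figure D4:**
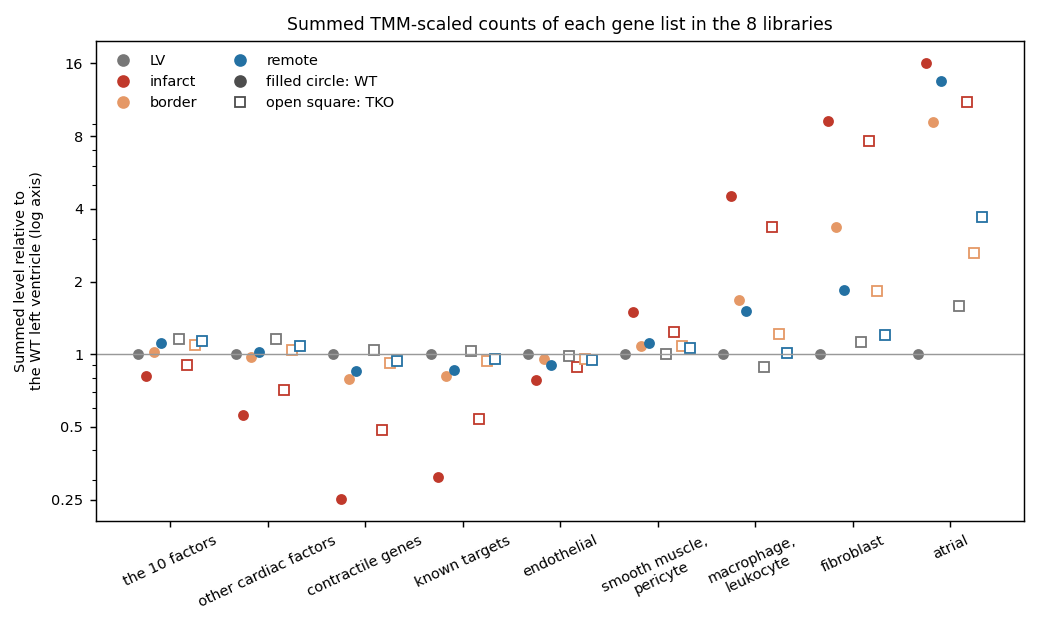
Summed TMM-scaled counts of each gene list relative to the WT LV library (y axis, log scale), with filled circles for WT, open squares for TKO, and colours for the regions. The 10 factors lay between 0.811 and 1.16, while contractile genes stood at 0.252 and fibroblast markers at 9.28 in the WT infarct library.

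In the border zone against the LV, edgeR called 0 of the 10 factors, with 0.715% of all genes called. At an unadjusted p under 0.05 was 1 factor, beside 2333 of the 12999 tested genes. DESeq2 also called 0 of the 10, where it called 576 of the 12999 tested genes. The factor at an unadjusted p under 0.05 was *Tbx5*, with a log2 difference of -0.46 ± 0.16 and an edgeR adjusted p of 0.223. Its border over LV ratio was 0.596 in WT (0.521 to 0.682) and 0.890 in TKO (0.786 to 1.009). *Tbx20* stood at 1.54 in the WT border library (1.44 to 1.65) and at 0.957 in TKO (0.898 to 1.02). The median of the 10 was 1.05 in WT and 0.953 in TKO, and none was past 2-fold, against 7.49% and 6.42% of all genes.

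In the remote zone against the LV, edgeR and DESeq2 each called 0 of the 10 factors, and 1 had an unadjusted p under 0.05. Across all 12999 tested genes edgeR called 0%, with 1378 at an unadjusted p under 0.05, and DESeq2 called 162. The factor was *Hand2*, with 1067 counts in the WT LV, 1772 in the WT remote zone, 1268 in the TKO LV, and 1704 in the TKO remote zone. Its log2 difference was 0.40 ± 0.12 (edgeR adjusted p = 0.376), and its remote over LV ratios were 1.495 in WT (1.39 to 1.62) and 1.16 in TKO (1.07 to 1.24). *Tbx5* also had its highest level in the remote library of each genotype. These 2 libraries held the most *Myl7*, *Sln*, *Bmp10*, and *Myl4*, all genes of atrial muscle. The remaining atrial marker of the list of 5, *Nppa*, was highest in the infarct libraries instead. It had 126364 counts in WT and 74576 in TKO there, against 59713 and 14718 in the remote libraries. *Bmp10* had 2134 counts in the WT and 305 in the TKO remote library against 6 to 34 elsewhere. The part of atrial tissue in the levels of *Hand2* and *Tbx5* was not tested. The median ratio of the 10 factors was 1.17 in WT and 1.02 in TKO, with none past 2-fold, against 5.80% and 4.95% of all genes.

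The comparison of TKO with WT asks whether the loss of TIGAR came with other levels of these factors. Across the 4 regions, edgeR called 0 of the 10 at an adjusted p under 0.05, as it called 0.138% of all genes. At an unadjusted p under 0.05 were 3 factors, beside 2109 of the 12999 tested genes. *Nkx2-5* had a log2 difference of 0.40 ± 0.08 (adjusted p = 0.164), *Irx4* 0.57 ± 0.17 (adjusted p = 0.229), and *Tbx5* 0.27 ± 0.11 (adjusted p = 0.302). The Wald test of DESeq2 called *Nkx2-5* alone (adjusted p = 0.00561), where it called 2.63% of all genes. The TKO level of *Nkx2-5* was above the WT level in 4 of 4 regions, and so was that of *Irx4*. Of the other 7 factors, *Gata4*, *Hand2*, *Mef2a*, *Mef2d*, and *Gata6* had positive differences of 0.02 to 0.23, and *Mef2c* (-0.12) and *Tbx20* (-0.07) negative ones, all with an adjusted p of at least 0.344. With total counts *Gata6*, *Mef2a*, and *Mef2d* turned negative. Regions take the place of replicates here, and the sources used here do not say whether 1 heart gave several of the libraries.

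By region, the TKO over WT ratios of the factors had medians of 1.19 (LV), 1.17 (infarct), 1.082 (border), and 1.003 (remote), against 0.993 to 1.01 for all genes. The contractile genes had medians of 1.12, 1.84, 1.11, and 1.079. In the infarct zone 9 of the 10 factors were above 1, but only *Irx4* was above the contractile median. With total counts 4 of the 10 were above 1 and their median was 0.952, so the direction of most of these ratios depended on the scaling. The factors stood at 0.635 times the contractile median in that zone, and at 0.930 to 1.06 times it in the other 3 regions.

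*Irx4* had the highest TKO over WT ratio in the LV, 1.63 (1.49 to 1.79), and in the infarct zone, 2.25 (1.997 to 2.54), with 797 counts in TKO and 419 in WT. It was the only factor past 2-fold in any region. With total counts the infarct ratio was 1.84. Its ratios were 1.26 (1.16 to 1.38) in the border zone and 1.07 (0.980 to 1.16) in the remote zone, where a difference was not detectable at this depth. Set against the other 3 regions, the genotype effect on *Irx4* in the infarct zone was larger by 0.79 ± 0.27 on the log2 scale (edgeR adjusted p = 0.542), and edgeR called 0 of the 10 for such a departure, 0.00769% of all genes being called. *Irx4* was the 1 factor with an unadjusted p under 0.05, beside 1018 of the 12999 tested genes. DESeq2 called 288 of the tested genes and 0 of the 5 factors to which it gave an adjusted p. *Irx4* was among the 5 without one (unadjusted p = 0.0298), so DESeq2 made no call on it. In the LV, past 2-fold were 0 of 10 factors and 5.94% of all genes. The infarct zone had 1 of 10 and 4.02%, the border zone 0 of 10 and 4.67%, and the remote zone 0 of 10 and 3.90%.

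With TMM the infarct zone gave the highest ratio of *Nkx2-5* in TKO to WT, 1.48 (1.38 to 1.601). With total counts it was 1.21 there and the LV, at 1.35, was the highest. The ratio was 1.35 (1.27 to 1.44) in the LV, 1.30 (1.22 to 1.39) in the border zone, and 1.18 (1.11 to 1.25) in the remote zone. None of these intervals reached 1. *Tbx5* was higher in TKO in the border zone, at 1.45 (1.27 to 1.67), and in the infarct zone, at 1.37 (1.18 to 1.59), but not in the LV, at 0.973 (0.860 to 1.100). For *Gata4* the ratio was 1.46 in the LV (1.38 to 1.55), 1.28 in the infarct zone (1.202 to 1.36), and 1.001 (0.946 to 1.06) in the border zone. With total counts the infarct ratios came closer to 1, at 1.11 for *Tbx5* and 1.04 for *Gata4*. *Tbx5* in the border zone was then at 1.36, and *Gata4* in the LV at 1.46.

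*Tbx20* had the lowest TKO over WT ratio of the 10 in 3 regions, at 0.887 (0.851 to 0.924) for the infarct, 0.860 (0.810 to 0.913) for the border, and 0.790 (0.742 to 0.840) for the remote zone. In the LV it was higher in TKO, at 1.385 (1.29 to 1.49). With 1 library per genotype and region, these intervals cover counting error only. Reads that carry no molecular identifiers can be copies of 1 molecule, which the intervals do not allow for. *Mef2c* was lower in TKO in the LV, at 0.870 (0.759 to 0.997), and in the remote zone, at 0.790 (0.703 to 0.888). In the border and infarct zones its intervals included 1.

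**Figure D5:**
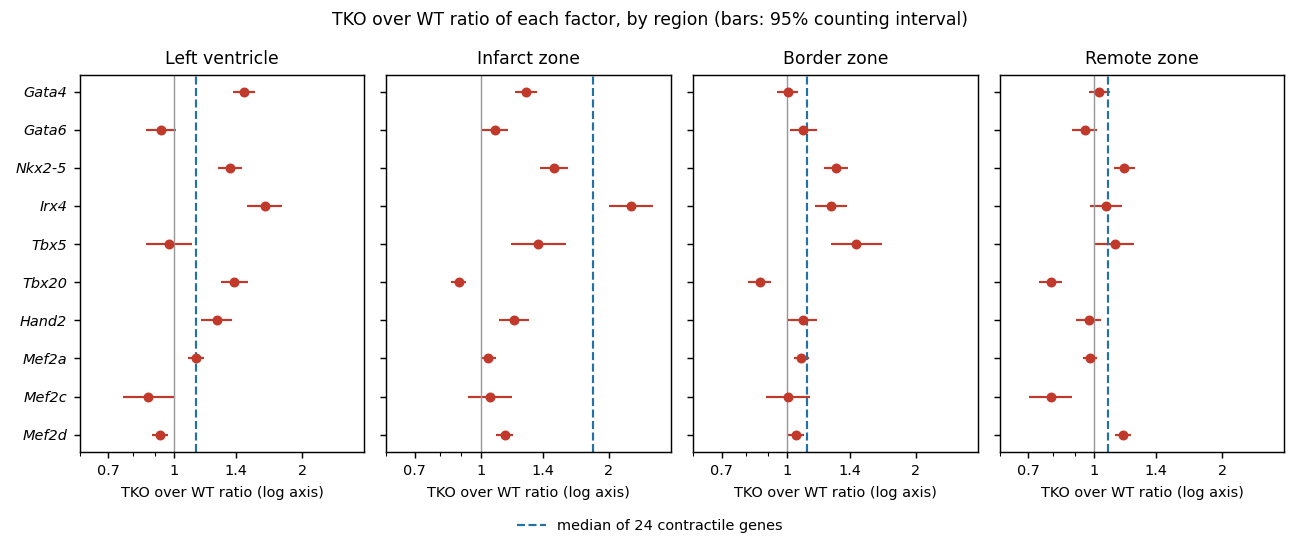
TKO over WT ratio of each factor in the 4 regions (x axis, log scale), 1 library per genotype, with bars for the 95% interval from counting error and a dashed line at the median of 24 contractile genes. *Irx4* in the infarct zone was the only ratio above 2, and *Tbx20* was above 1 in the LV and below 1 in the other 3 regions.

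Known targets of these factors were followed as a list of 24 genes, 10 of which are also on the contractile list. For genotype, edgeR called 0 of the 24 at an adjusted p under 0.05 and 5 had an unadjusted p under 0.05, while DESeq2 called 3 (*Actc1*, *Hopx*, and *Kcnh2*). Over all 12999 tested genes 2109 had such an unadjusted p with edgeR, and DESeq2 called 342. In the infarct zone 15 were called lower and 3 higher than in the LV, beside 28.6% and 28.2% of all genes, with a median log2 difference of -1.11. With total counts 12 were called lower and 6 higher, where 8953 of the 12999 tested genes were called in either direction. *Myh6*, the adult myosin heavy chain, had 244473, 45355, 161279, and 160486 counts in WT and 153941, 130620, 215001, and 215284 in TKO, from LV to remote zone. It fell by 1.85 ± 0.54 in the infarct zone (edgeR adjusted p = 0.0264), and its TKO over WT ratio there was 3.41 (3.37 to 3.44), the highest of the list. *Nppa*, the atrial natriuretic peptide, had 4736, 126364, 51584, and 59713 counts in WT and 7244, 74576, 13881, and 14718 in TKO. It rose by 3.30 ± 0.68 in the infarct zone (edgeR adjusted p = 0.00715) and had the lowest TKO over WT ratio of the list there, 0.698 (0.692 to 0.705). The other members of the fetal program in the list, *Myh7* and *Nppb*, had TKO over WT ratios of 1.03 and 1.14 in the infarct zone. *Myh7* rose by 1.65 ± 0.46 (edgeR adjusted p = 0.0223), and *Nppb* had a difference of 0.55 ± 0.60 (adjusted p = 0.457).

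The genes whose pattern over the 8 libraries was most like that of a factor were found by the root mean square difference of the mean-centred log2 levels. For *Tbx20* they were *Cttnbp2* (0.0695) and *Rarg* (0.0708), for *Irx4* *Popdc2* (0.106) and *Taco1* (0.115), and for *Nkx2-5* *Ciapin1* (0.0526) and *Pak6* (0.0594). The nearest to *Tbx5* were *Il15* (0.136) and *Hnmt* (0.148), to *Hand2* *Ufsp1* (0.102) and *Pdp1* (0.104), to *Gata4* *Rtl8a* (0.0522) and *Stk40* (0.0581), and to *Gata6* *Ythdf3* (0.0470) and *Usp9x* (0.0573). For the MEF2 genes they were *Hprt* (0.0329) and *Ppp3cb* (0.0342) for *Mef2a*, *Dcun1d5* (0.0743) and *Zfp955a* (0.0748) for *Mef2c*, and *Gga1* (0.0319) and *Naca* (0.0343) for *Mef2d*. *Tbx5* thus had the most distant neighbours. Within the 10 factors, the closest pair was *Gata6* and *Mef2c* (0.103). *Irx4* and *Tbx5* each had *Nkx2-5* as their closest, at 0.210 and 0.228, and the closest to *Tbx20* was *Gata6*, at 0.507.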

How the data were processed

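RNA from 8 mouse heart libraries was analysed, 1 per genotype and region. For trimming, the authors used Trim Galore 0.6.5, and for transcript quantification Kallisto 0.46 with mm10 as the reference, with tximport for the gene level. The deposited values are estimated counts per gene as whole numbers, without normalization, and entered the tests unchanged. Depth was 27429240 to 33799249 counts per library. Gene positions come from GENCODE on GRCm38, and promoter windows from RefSeq.

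Library sizes were scaled by TMM over 12999 genes whose mean CPM was 1 or more. Genotype (with regions as blocks), each zone against the LV (with genotype as a block), and the departure of the infarct zone were fitted across all genes with edgeR 4.0.16 (quasi-likelihood test, Benjamini-Hochberg adjustment, threshold 0.05) in R 4.3.3, and with DESeq2 1.42.0. The scripts were tested on simulated data. Ratios of 2 libraries used a prior count of 0.5 and exact binomial (Clopper-Pearson) 95% intervals, with no p-value, since 1 library per group has no replicate. Python 3.11.15 with pandas 2.3.3, numpy 2.4.6, scipy 1.17.1, and matplotlib 3.10.9 made the tables and figures.

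The members and gene lists were chosen with earlier results of these data known. Named by rule were the 10 factors, *Tigar*, *Myh6*, *Myh7*, *Nppa*, *Nppb*, from each list the genes at the highest and lowest infarct zone ratio of TKO over WT, and the 2 genes most alike in pattern to each factor. The other genes named were chosen after their values were seen: *Myl7*, *Myl4*, *Actc1*, *Kcnh2*, *Col1a1*, *Postn*, *Csf1r*, *Lyz2*, *Ankrd1*, *Heyl*, *Foxp1*, *Mrtfa*, *Nr2f2*, *Irx3*, *Smyd1*, *Gata5*, and *Tbx1*. The alternatives were total counts, DESeq2 size factors, mitochondrial DNA–encoded genes left out, other filters, the DESeq2 test, regions left out in turn, TMM over 2 libraries, a prior count of 2, and another transcript length. Added after seeing the data were the border and remote zones as the reference and the TKO LV or the WT remote library left out.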

Additional observations from a re-analysis of the deposited data

Results flagged for a closer look

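*Tbx20* was singled out because its genotype ratio pointed in opposite directions in different regions. The TKO over WT ratio was 1.385 in the LV (1811 over 1383 counts) and 0.79 in the remote zone (1807 over 2312 counts). Each rests on 1 library per genotype, and the difference between these regions was not tested.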

How the results depend on the processing

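Total counts in place of TMM changed the most. With them, the infarct zone against LV test called 5 factors, beside 8953 of the 12999 tested genes. The log2 differences of *Gata4* (0.063), *Gata6* (0.57), *Mef2a* (0.31), *Mef2c* (0.53), *Mef2d* (0.062), and *Hand2* (0.17) turned positive, while that of *Nkx2-5* lost its call. The genotype differences of *Gata6* (-0.088), *Mef2a* (-0.026), and *Mef2d* (-0.011), and the departure of the infarct zone for *Nkx2-5* (-0.035), turned negative. The median ratios of the factors became 0.952 for TKO over WT in the infarct zone, 1.27 for infarct over LV in WT, 1.02 for infarct over LV in TKO, and 1.16 for border over LV in WT. The cause was not tested. DESeq2 called 1 factor for genotype, *Nkx2-5*. With regions or single libraries left out, the genotype difference of *Gata6* ran from -0.026 to 0.056 and that of *Tbx20* from -0.242 to 0.026, both across 0. With the longest transcript as length, the highest factor stood 15.39 times above the lowest per kb, against 34.2 with the union of exons.

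With the border and remote zones as the reference, all 10 factors were called in the infarct zone, beside 7049 of 12999 tested genes. Without the WT remote library 7 were called, beside 6678 of 13047. Without the TKO LV library, which leaves 1 LV library, the log2 differences ran from -1.29 for *Tbx5* to 1.34 for *Tbx20*. Those of *Gata4* and *Mef2a* were then -0.40 and -0.32. DESeq2 size factors, the removal of mitochondrial genes, and the filters on low counts left the number called at 8. The genes called were then 7389 and 7383 of 12999 for the first 2, 7542 of 16964 with no filter, and 7320 of 12897 with at least 10 counts in every library. With 1 library per group, no genotype difference within a region could be tested.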

Other observations

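Other transcription factors and cofactors of the cardiac lineage were called in both directions. Of 37 found in the table, 32 were tested, and in the infarct zone against the LV edgeR called 8 higher and 15 lower, beside 28.2% and 28.6% of all genes. With total counts the same list had 16 higher and 3 lower, where 8953 of the 12999 tested genes were called in either direction. Those called lower under both scalings were *Hopx*, a homeodomain cofactor, *Smyd1*, a muscle methyltransferase, and *Irx3*, an Iroquois relative of *Irx4*. *Hopx* had 8013, 2580, 6139, and 7885 counts in WT and 10511, 4328, 7914, and 8901 in TKO, from LV to remote zone, and fell by 1.98 on the log2 scale (edgeR adjusted p = 0.000943). In the infarct zone its ratio of TKO over WT, 1.99 (95% counting interval, 1.89 to 2.09), was the highest of the list. *Smyd1* fell by 1.53 (edgeR adjusted p = 0.00277) and *Irx3* by 1.15 (edgeR adjusted p = 0.00181).

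Called higher under both scalings were 8 genes, *Nr2f2*, *Mrtfa*, *Foxp1*, *Tbx18*, *Tbx1*, *Gata5*, *Heyl*, and *Ankrd1*. *Nr2f2*, a nuclear receptor of atrial muscle and veins, rose by 1.58 in the infarct zone, with 1073 counts in WT and 659 in TKO. *Gata5*, a GATA factor of the endocardium and epicardium, rose by 3.01, from 11 counts in the LV to 108 in WT and from 5 to 81 in TKO. *Tbx18*, known from epicardium and mural cells, had 681 counts in the WT infarct library and 376 in the TKO one. This ratio of 0.654 (0.575 to 0.742) was the lowest of the list. For genotype across regions edgeR called 0 of the 32 at an adjusted p under 0.05, with 4 at an unadjusted p under 0.05, and DESeq2 called *Hopx* alone. Of all 12999 tested genes, 2109 had an unadjusted p under 0.05 with edgeR, and DESeq2 called 342.

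The extremes of the marker lists in the infarct zone, as ratios of TKO over WT, were these. Contractile genes ran from *Des* (desmin) at 1.52 to *Myh6* at 3.41, with all 24 above 1. Fibroblast markers ran from *Tcf21* at 0.609 to *Dcn* (decorin) at 0.894, and macrophage and leukocyte markers from *Ptprc* (CD45) at 0.599 to *Itgam* at 0.849. Endothelial markers ran from *Emcn* at 0.885 to *Flt1* at 1.43, and 1 of the 8 was called lower in the infarct zone than in the LV with TMM and 6 were called higher with total counts. Smooth muscle and pericyte markers ran from *Cnn1* at 0.475 to *Kcnj8* at 1.46, with 5 of 7 called higher and 1 lower in the infarct zone. Of 5 epicardial markers, 4 were called higher in the infarct zone, *Wt1* had a ratio of 0.853, and *Msln* had 213 counts in the WT infarct library and 0 in the TKO one. Of 5 atrial markers 1 was called higher there, *Nppa*, and *Sln* had 300 counts in WT and 10 in TKO. For genotype across regions edgeR called *Ptprc* among all these markers, lower in TKO. DESeq2 called *Ptprc*, *Csf1r*, *Itgam*, and *Lyz2* of the macrophage and leukocyte markers, *Col1a1* and *Postn* of the fibroblast markers, and *Actc1* of the contractile genes.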
